A study of Mus musculus with 2 samples.

Results

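The PGC-1 coactivators and the nuclear-encoded factors of mitochondrial biogenesis were examined in the dormant DMC-derived melanoma line B16F1-GFP-D and in its maternal line B16F1-GFP-M. The group held 10 genes, out of 27790 genes or transcripts that the arrays measured, namely *Ppargc1a*, *Ppargc1b*, *Pprc1*, *Esrra*, *Nrf1*, *Gabpa*, *Tfam*, *Tfb1m*, *Tfb2m* and *Polg*. The genes were chosen by name as members of this pathway, after the high log2 ratio of *Ppargc1a* on the same arrays was known. The ratios of *Ppargc1a* are therefore given as a description and not as a finding.

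Both lines are B16F1 cells, a mouse melanoma line, transfected to express green fluorescent protein, and both were untreated and grown in DMEM with 10% serum. B16F1-GFP-D came from 1 clone of GFP-positive cells sorted from pooled organs of mice, immunised and control, that had stayed free of tumours for a year after the injection of melanoma cells. It may therefore carry features of that clone and of its passage through mice. RNA of both lines was hybridised together to 2 two-colour Agilent arrays on 1 slide, B16F1-GFP-D being labelled with Cy3 on array 1 and with Cy5 on array 2, and B16F1-GFP-M with the opposite dye. The labels name no separate cultures, so both arrays together stand for 1 replicate of each line. No test between the lines was possible, and every SD below is the spread between the 2 arrays (n = 2), which holds the effect of the dyes but not the variation from culture to culture. In such bulk RNA, more RNA per cell and more cells that express a gene cannot be told apart.

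PGC-1 proteins do not bind DNA themselves. They are coactivators, brought to promoters by nuclear receptors such as ERRα and by the nuclear respiratory factors NRF1 and NRF2 (GABP), and the targets of these factors include genes for oxidative metabolism and for the copying and transcription of mitochondrial DNA. In melanocytes and in a subset of melanomas, *Ppargc1a* is known as a target of MITF, the master regulator of the melanocyte lineage.

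All 10 genes were detected, that is, their brightest probe was well above local background in at least 1 line on both arrays. Of their 21 probes, 20 were well above background in both lines. A gene was called when it was past 2-fold in the same direction on each array, a rule of size with no test behind it. By this rule 1 of the 10 genes was called, *Ppargc1a*, which was higher in B16F1-GFP-D. Among all 12540 detected genes, 5.02% were called, and 3.09% were called as higher in B16F1-GFP-D. Of the 10 genes, 4 were above 0 on both arrays, against 41% of all detected genes, and 5 were below 0 on both arrays, against 42.8%. Ratios are given as log2 of the level in B16F1-GFP-D over that in B16F1-GFP-M. Their median was 0.0089 for the 10 genes and -0.0081 for all detected genes. This median turned on the probe that stands for *Tfam*, and was 0.26 when only probes listed under a RefSeq accession were read, a choice made after seeing the data. The median of the 9 genes without *Ppargc1a* was -0.08.

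**Figure D1:**
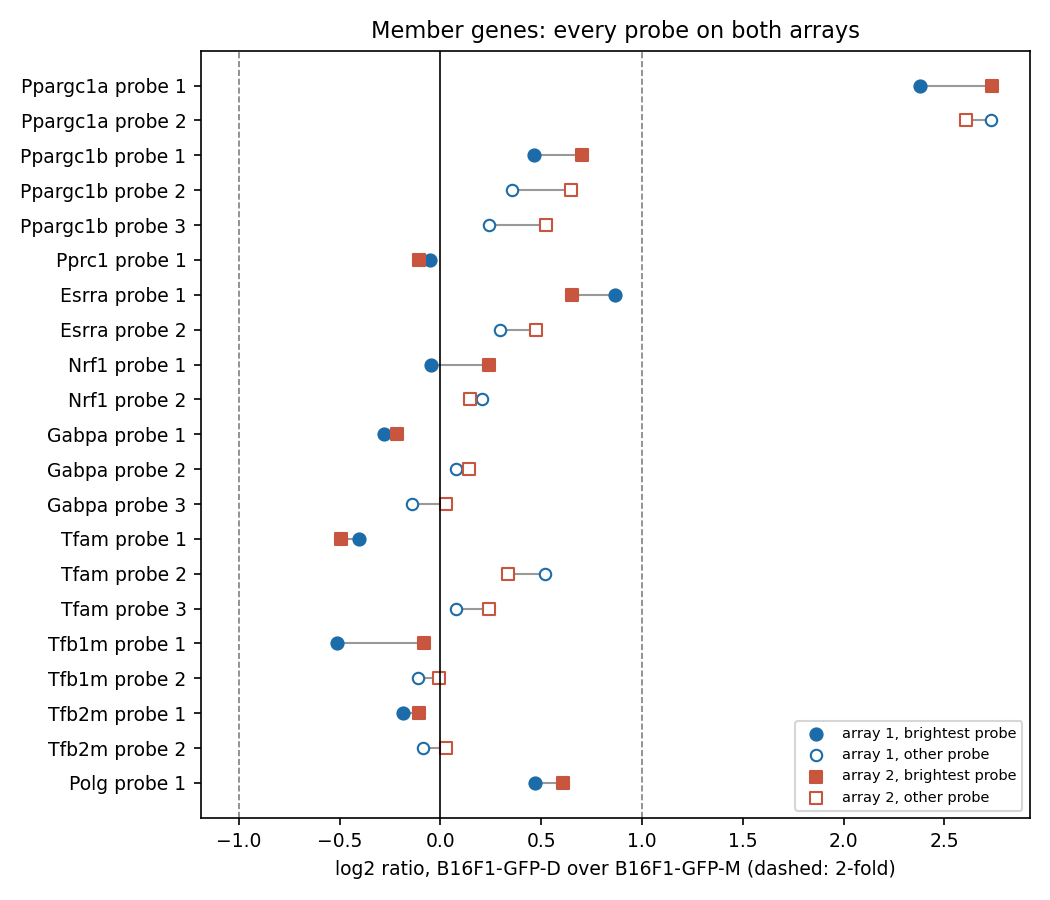
The log2 ratio, B16F1-GFP-D over B16F1-GFP-M (x axis), is plotted for each of the 21 probes of the 10 genes (rows), with a circle for array 1 and a square for array 2, and filled symbols for the brightest probe of a gene. Both *Ppargc1a* probes lie at 2.38 or higher on both arrays, all other probes lie within the dashed 2-fold lines, and the probes of *Gabpa* and *Tfam* fall on both sides of 0.

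*Ppargc1a*, which encodes PGC-1α, the coactivator named for the group, had the highest ratio of the 10 genes. At its brightest probe the raw spot intensity was 1123 in B16F1-GFP-D and 714 in B16F1-GFP-M on array 1. On array 2 it was 4242 in B16F1-GFP-D and 162 in B16F1-GFP-M. B16F1-GFP-D was thus the brighter channel under either dye before any correction. No other gene of the group had this at its brightest probe: in the other 9, B16F1-GFP-M was the brighter channel on array 1 and B16F1-GFP-D on array 2, so that the Cy5 channel was the brighter. This goes with the high ratio for which *Ppargc1a* was picked, and its share among all detected genes was not counted. After background correction and loess normalization within each array, the log2 level of *Ppargc1a* was 10.98 and 11.15 in B16F1-GFP-D on arrays 1 and 2, and 8.60 and 8.41 in B16F1-GFP-M. The levels of the lines did not overlap, nor did those of *Ppargc1b*, *Esrra*, *Gabpa*, *Tfam*, *Tfb1m*, *Tfb2m* and *Polg* at their brightest probes. How many of all detected genes had this was not counted. The log2 ratio of *Ppargc1a* was 2.38 on array 1 and 2.74 on array 2, a mean of 2.56 ± 0.25 (SD, n = 2), or 5.89-fold, and was the fourth highest among the 12540 detected genes.

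The second *Ppargc1a* probe gave the same picture. Its raw intensity was 449 in B16F1-GFP-D and 221 in B16F1-GFP-M on array 1, and 1529 and 63.8 on array 2. Its log2 ratios of 2.73 and 2.61 had a mean of 2.67 ± 0.09 (SD, n = 2), which differed from that of the brightest probe by 0.11. The brightest probe lies at chr5:51848928-51848987 of the mm9 build and the second at chr5:51846897-51846956, both on the minus strand. They begin at base 2964 and at base 4995 of the RefSeq transcript named by the array files, so that neither reads the 5′ end, and transcripts from different start sites of the gene are not told apart.

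Because the highest ratio of the group belonged to *Ppargc1a*, its promoter is shown. The 250 bases before the RefSeq start, at chr5:51567726-51567975 of GRCm38.p6 on the minus strand, run 5′ to 3′ with 2 matches in capitals. The first is CACATG, the reverse complement of the M-box core CATGTG that MITF binds, which begins 160 bases before the start. The second is ACGTCA, the reverse complement of TGACGT, the half-site of the cyclic AMP response element bound by CREB, which begins 50 bases before the start.

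Ppargc1a promoter: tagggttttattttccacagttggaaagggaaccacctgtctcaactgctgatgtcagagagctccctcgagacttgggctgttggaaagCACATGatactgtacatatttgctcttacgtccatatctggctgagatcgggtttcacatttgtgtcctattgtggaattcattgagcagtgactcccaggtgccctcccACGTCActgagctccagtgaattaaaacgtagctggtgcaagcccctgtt

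Such short motifs are common. CATGTG on either strand was present in 12.3% of the 32851 RefSeq promoters of this length, and in the group also in that of *Tfam*, 210 bases before its start. TGACGT was present in 6.47%. The full element TGACGTCA, present in 1.55% of promoters, was not found in this window, nor was the E-box CACGTG, present in 6.02%. The arrays measured no binding, and a match says only that these letters occur.

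The paralog *Ppargc1b*, which encodes the coactivator PGC-1β, was higher in B16F1-GFP-D by a smaller margin. The normalized log2 levels at its brightest probe were 9.13 and 9.36 in B16F1-GFP-D on arrays 1 and 2, against 8.66 on each array in B16F1-GFP-M. The log2 ratio was 0.46 and 0.70, with a mean of 0.58 ± 0.17 (SD, n = 2). Its 2 other probes had means of 0.50 and 0.38, so all of its 3 probes had the same sign. *Pprc1*, which encodes the PGC-1-related coactivator PRC, was read by 1 probe. Its log2 levels were 10.55 and 10.62 in B16F1-GFP-D, and 10.60 and 10.73 in B16F1-GFP-M. Its ratio of -0.05 on array 1 and -0.11 on array 2 was near 0. The 3 coactivators thus did not have a common ratio, at 2.56 for *Ppargc1a*, 0.58 for *Ppargc1b* and -0.08 for *Pprc1*, and the order was the same on both arrays.

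**Figure D2:**
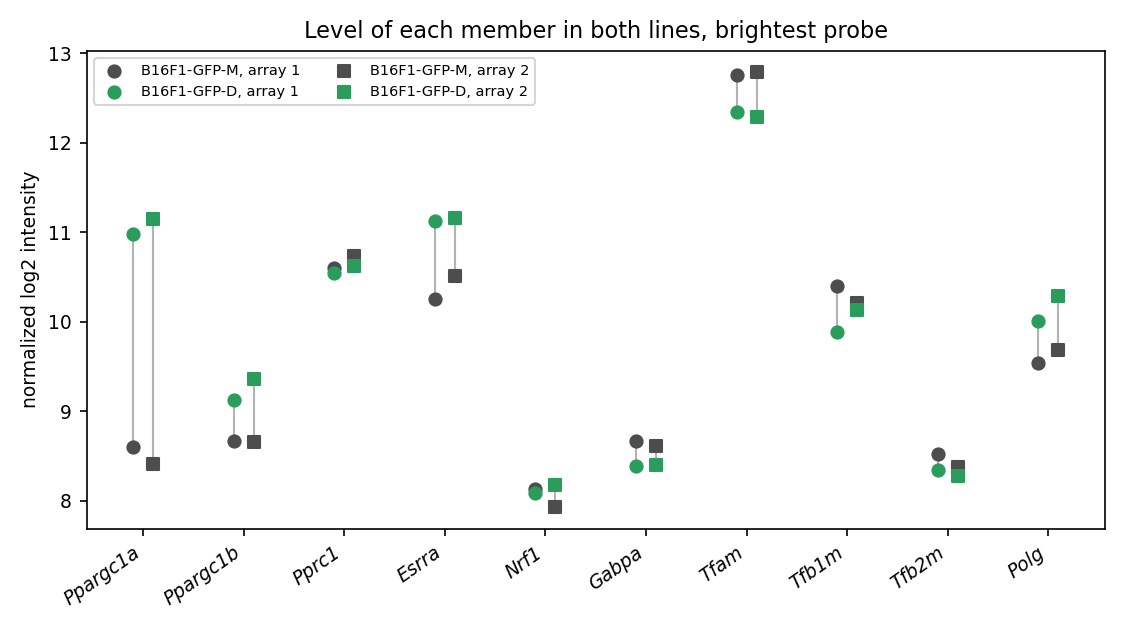
The normalized log2 intensity (y axis) of the brightest probe of each gene (x axis) is plotted in B16F1-GFP-D (green) and B16F1-GFP-M (grey) on array 1 (circles) and array 2 (squares), with a line joining the lines on 1 array. Only the distance within a gene can be read, since probes differ in brightness. It is widest for *Ppargc1a*, with 10.98 over 8.60 on array 1 and 11.15 over 8.41 on array 2.

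Among the DNA-binding partners of the coactivators, *Esrra*, which encodes the orphan receptor ERRα, had the highest ratio. Its normalized log2 levels were 11.12 and 11.16 in B16F1-GFP-D and 10.26 and 10.51 in B16F1-GFP-M. The log2 ratio was 0.87 on array 1 and 0.65 on array 2, a mean of 0.76 ± 0.15 (SD, n = 2), or 1.69-fold. It was not past 2-fold on either array, and it was the 1 further gene of the group called at a threshold of 1.5-fold, which 15.8% of all detected genes passed. The other *Esrra* probe had a mean of 0.39 in the same direction.

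The second DNA-binding factor, *Nrf1*, encodes nuclear respiratory factor 1, which binds promoters of respiratory genes. Its brightest probe had log2 ratios of -0.05 and 0.24 on arrays 1 and 2. It was the 1 gene of the 10 with opposite signs on the arrays, and its mean of 0.10 ± 0.20 (SD, n = 2) was within the spread. Its other probe had a mean of 0.18. *Gabpa* encodes the DNA-binding subunit of GABP. Its brightest probe was slightly lower in B16F1-GFP-D, with -0.28 and -0.22 and a mean of -0.25 ± 0.04 (SD, n = 2). Its 2 other probes had means of 0.11 and -0.06, so the 3 probes of *Gabpa* did not settle a direction.

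The promoter of *Esrra* is shown because it was the 1 promoter searched that held GCGCATGC, a core of an NRF1 site, on either strand. Only these exact letters within the 250 bases were searched, so other forms of the core, or matches cut by the window, were not counted. The 250 bases before its RefSeq start, at chr19:6921809-6922058 of GRCm38.p6 on the minus strand, hold GCATGCGC, the reverse complement of GCGCATGC, which begins 34 bases before the start and is in capitals.

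Esrra promoter: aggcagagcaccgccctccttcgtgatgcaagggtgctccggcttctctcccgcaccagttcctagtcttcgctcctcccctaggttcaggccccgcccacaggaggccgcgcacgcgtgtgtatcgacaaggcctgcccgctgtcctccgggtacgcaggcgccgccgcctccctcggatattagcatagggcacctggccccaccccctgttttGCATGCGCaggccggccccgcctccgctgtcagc

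This core was present in 2.26% of the 32851 promoters. The 7-base ETS motif CCGGAAG, the kind of site that GABP binds, was present in 6.91% of promoters and was found in those of *Gabpa*, *Tfam* and *Polg*, 93, 47 and 38 bases before the start. The ERR half-site AAGGTCA, present in 4.08% of promoters, was found in none of the 10 promoters searched, which belong to 9 of the genes. That of *Ppargc1b* was not analysed here.

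The factors that act inside mitochondria are encoded by *Tfam*, the packaging protein and transcription activator of mitochondrial DNA, *Tfb1m* and *Tfb2m*, the paralogs of which the first methylates mitochondrial ribosomal RNA and the second starts transcription, and *Polg*, the catalytic subunit of the mitochondrial DNA polymerase. *Polg*, read by 1 probe, was higher in B16F1-GFP-D. Its log2 levels were 10.01 and 10.29 in B16F1-GFP-D and 9.54 and 9.68 in B16F1-GFP-M, and its ratio of 0.47 and 0.61 had a mean of 0.54 ± 0.10 (SD, n = 2), or 1.45-fold. *Tfb1m* had ratios of -0.51 and -0.08 on arrays 1 and 2, and the mean of -0.30 ± 0.31 (SD, n = 2) did not exceed the spread between the arrays. The other *Tfb1m* probe was not well above background in either line. *Tfb2m* had -0.18 and -0.11 at its brightest probe, with a mean of -0.15 ± 0.05 (SD, n = 2), and a mean of -0.03 at its other probe.

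*Tfam* was the gene whose probes differed most in direction. Its brightest probe was lower in B16F1-GFP-D, with log2 levels of 12.35 and 12.29 against 12.75 and 12.78 in B16F1-GFP-M, and ratios of -0.41 and -0.49, a mean of -0.45 ± 0.06 (SD, n = 2). The next probe was higher in B16F1-GFP-D, with levels of 10.77 and 10.85 against 10.25 and 10.52, and ratios of 0.52 and 0.33, a mean of 0.43 ± 0.13 (SD, n = 2). The last probe had a mean of 0.16. Between the first pair of probes the directions were opposite on both arrays.

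The sequences of these probes differ in where they come from. The second and the third probe begin at bases 980 and 3217 of the RefSeq transcript of *Tfam*, and lie at chr10:70691103-70691162 and chr10:70688866-70688925 of mm9. The brightest probe is listed under an Ensembl transcript instead. It spans 21 bases of mm9 in the array files, chr10:70688212-70688232 on the minus strand, although it is 60 bases long. The array files thus place it 3′ of the third probe and not before the start of the gene. It is made of G and C for 78.3% of its bases, against 45% in both others. It matched, on the same strand and with 1 base inserted or deleted and none substituted, a run of 61 bases that ends 86 bases before the RefSeq start of *Tfam*. None of the other 20 probes of the group matched any of the 10 promoters with up to 3 edits. The probe and the 250 bases before the start, at chr10:71238045-71238294 of GRCm38.p6 on the minus strand, are shown 5′ to 3′ because the direction of *Tfam* rests on them, with the matched run in capitals.

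Tfam brightest probe: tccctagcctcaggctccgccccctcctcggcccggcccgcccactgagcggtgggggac
Tfam promoter: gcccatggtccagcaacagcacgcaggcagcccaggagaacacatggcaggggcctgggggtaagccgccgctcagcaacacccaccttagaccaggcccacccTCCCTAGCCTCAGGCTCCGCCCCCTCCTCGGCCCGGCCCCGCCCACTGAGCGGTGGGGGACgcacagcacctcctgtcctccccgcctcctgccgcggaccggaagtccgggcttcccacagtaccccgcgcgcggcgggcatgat

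The brightest probe thus matches sequence before the RefSeq start and the others lie in the RefSeq transcript. Which RNA bound the brightest probe, and which of its placements holds, was not tested. At the RefSeq probes *Tfam* was higher in B16F1-GFP-D, and at the brightest probe it was lower.

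Besides these genes, 145 genes of the pathway were grouped into lists by role. Of these, 134 were on the arrays and 117 were detected. Of the 117, 3 were called, 2 as higher and 1 as lower in B16F1-GFP-D, a smaller share than the 5.02% of all detected genes. On both arrays 50 were above 0 and 59 below, where 41% and 42.8% of all detected genes were. Their median log2 ratio was -0.04. The lists did not share a direction, and the shares of 41% above and 42.8% below 0 also stand beside the counts of each list below.

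The targets of the pathway in oxidative metabolism had the highest median. On both arrays 18 of its 22 detected genes were higher in B16F1-GFP-D and 3 were lower, and the median was 0.51. The 2 called genes were *Idh3a*, a subunit of the isocitrate dehydrogenase of the citric acid cycle, with log2 ratios of 1.17 and 1.72 and a mean of 1.44, and *Fabp3*, a fatty acid-binding protein, with 1.00 and 1.19 and a mean of 1.10. *Cycs*, the electron carrier cytochrome c, had a mean of 1.24, and *Slc25a4*, the mitochondrial exchanger of ADP and ATP, had a mean of 1.11. Each was past 2-fold on 1 array, and they are named after their values were seen. The lowest of this list was *Vegfa*, which encodes an angiogenic growth factor and is a known PGC-1α target outside mitochondria, with -0.82 and -0.32. *Ucp1*, *Ucp2*, *Ucp3* and *Pdk4*, targets known from brown fat and muscle, were not detected.

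The upstream regulators, of *Ppargc1a* or of its protein, were for the most part lower in B16F1-GFP-D. On both arrays 17 of 26 detected genes were lower and 6 higher, the median was -0.34, and none was called. The list holds activators and repressors together, so its count and median do not describe the activators alone. *Mitf* had the lowest ratio, with -0.95 on array 1 and -0.89 on array 2, a mean of -0.92. *Sox10*, which acts with MITF in the melanocyte lineage, had -0.50 and -0.18. *Ppargc1a* and its known activator *Mitf* had RNA ratios of opposite sign in the same samples, and the part of MITF in the ratio of *Ppargc1a* was not tested. *Mitf* and *Sox10* also belong to the melanocyte markers below. *Sirt1*, which encodes the deacetylase of PGC-1α, had -0.87 and -0.80, and *Creb1*, the cyclic AMP response factor, had -0.60 and -0.53. The highest of the list was *Mapk14*, which encodes the p38α kinase, with 0.47 and 0.75. *Sirt1*, *Creb1* and *Sox10* were also named after their values were seen. These values are those of the brightest probe. Over all probes of a gene, the means ran from -0.92 to -0.51 for *Mitf* and from -0.84 to -0.43 for *Sirt1*. They ran from -0.56 to 0.02 for *Creb1* and from -0.34 to -0.04 for *Sox10*.

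Other receptors and cofactors were lower as well, with 9 of 13 detected genes below 0 on both arrays, 3 above, none called, and a median of -0.26. This median was -0.07 when probes of a gene were summarised by their median, -0.12 without a filter on dim probes, -0.13 without array 1 and -0.15 without array 2. *Rxrb*, a retinoid X receptor, was lowest with -0.95 and -0.89, and *Hcfc1*, a host cell factor that binds PGC-1 coactivators, was highest with 0.51 and 0.84. *Esrrb*, *Esrrg*, *Ppard* and *Pparg* were not detected, so that *Esrra* was the 1 detected gene of its receptor subfamily and *Ppara*, at -0.24 and -0.33, of the PPARs. *Ppara* was not well above background in B16F1-GFP-D.

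**Figure D3:**
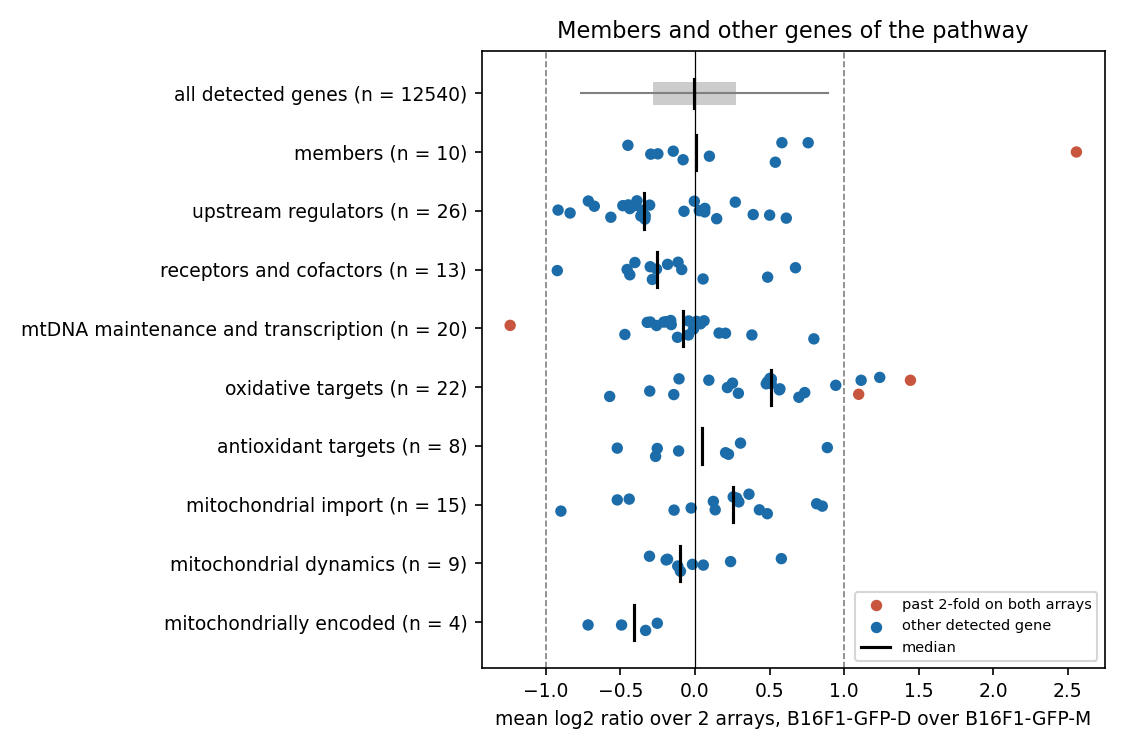
The mean over both arrays of the log2 ratio, B16F1-GFP-D over B16F1-GFP-M (x axis), is plotted for each detected gene of the group and of 8 lists (rows), with black bars at the medians, red points for genes past 2-fold on both arrays, and a box for the middle 50% of all detected genes with a line from the 5th to the 95th percentile. The median is 0.51 for oxidative targets, -0.34 for upstream regulators and -0.26 for receptors and cofactors, and *Ppargc1a* is the red point at 2.56.

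The genes that copy, repair and transcribe mitochondrial DNA had a median of -0.08. On both arrays 6 of 20 detected genes were above 0 and 11 below. The 1 called gene was *Lonp1*, the mitochondrial protease that degrades TFAM, with -1.05 and -1.42 and a mean of -1.24. The highest was *Dna2*, a nuclease and helicase that also acts in the nucleus, with 0.87 and 0.72. *Polrmt*, the RNA polymerase that TFAM and TFB2M serve, had 0.21 and 0.56 and was named after its value was seen. Of 13 protein genes encoded in mitochondrial DNA itself, 4 were matched to probes by the description in the array files. All 4 were lower on both arrays in B16F1-GFP-D and none was called. The ratios on arrays 1 and 2 were -0.58 and -0.85 for *COX2*, a subunit of cytochrome c oxidase, and -0.71 and -0.28 for *ND4*, a subunit of complex I. They were -0.56 and -0.10 for *ATP6*, a subunit of ATP synthase, and -0.42 and -0.08 for *CYTB*, cytochrome b of complex III. The array files place the probes of *COX2* and *ATP6* on chromosome 1 of mm9 and not on mitochondrial DNA, so which copy these probes read is uncertain. The median of the 4 was -0.57 on array 1, -0.19 on array 2 and -0.41 over both, and -0.06 with median centring.

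Antioxidant targets were split, with 4 of 8 higher and 4 lower on both arrays, a median of 0.05 and none called. This median was 0.22 when probes of a gene were summarised by their median. *Txnrd2*, the mitochondrial thioredoxin reductase, was highest with 0.87 and 0.91, and *Gpx1*, a glutathione peroxidase, was lowest with -0.54 and -0.50. In mitochondrial import, 10 of 15 genes were higher on both arrays and 5 lower, with a median of 0.26 and none called. *Tomm40*, the channel of the outer membrane, had 0.85 and 0.86, whereas *Hspa9*, the chaperone that pulls proteins into the matrix, had -0.81 and -0.99. In mitochondrial fusion and fission, 6 of 9 genes were lower on both arrays and 3 higher, with a median of -0.10 and none called. *Immt*, which shapes the cristae, was highest with 0.49 and 0.67, and the protease *Yme1l1* was lowest with -0.25 and -0.35.

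The 3 detected genes nearest to *Ppargc1a* by the pair of array ratios were *Cxcl10*, a chemokine, with 2.24 and 2.62, *Smtnl2* with 2.37 and 2.40, and *Ung*, the uracil-DNA glycosylase, with 2.33 and 2.39. Of these, *Smtnl2* was not well above background in B16F1-GFP-M. The likeness is the distance between 2 pairs of ratios.

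The identity of the cells was checked with marker lists. Each of the 7 melanocyte markers stood well above background in either line. Of these, 4 were lower on both arrays in B16F1-GFP-D and 2 were higher, with a median log2 ratio of -0.34, the same to 2 decimals as that of the upstream regulators, with which they share *Mitf* and *Sox10*. *Dct* and *Tyr*, enzymes of pigment synthesis, had means of -0.78 (-0.03 at the other *Dct* probe) and -0.39, and *Pmel*, of the pigment fibrils, had 0.30. The part of this in the ratios of the upstream regulators was not tested. Their summed intensities above background were 175164 and 839508 in B16F1-GFP-D on arrays 1 and 2, and 735902 and 138973 in B16F1-GFP-M. The higher sum was in the Cy5 channel on both arrays. Among markers of other cell types, none of those for endothelium, liver, striated muscle or keratinocytes was well above background in either line. Leukocyte markers were above background for 2 of 6 in B16F1-GFP-D, *Cd3e* and *Cd68*, and for none in B16F1-GFP-M. The log2 ratios were -0.06 and 0.05 for *Cd3e*, and 0.51 and 0.36 for *Cd68*. Summed intensities of leukocyte markers were 178 and 241 in B16F1-GFP-D and 285 and 145 in B16F1-GFP-M, and *Ptprc* was not detected. For fibroblasts 2 of 6 were above background in B16F1-GFP-D, *Col1a1* and *Col1a2*, and 1 in B16F1-GFP-M, *Col1a2*. The log2 ratios were 0.38 and 0.41 for *Col1a1*, and -0.33 on each array for *Col1a2*. Sums of fibroblast markers were 178 and 282 in B16F1-GFP-D against 321 and 160 in B16F1-GFP-M. For neural cells 2 of 5 were above background in each line, *Mbp* in both, *Aqp4* in B16F1-GFP-D and *Gfap* in B16F1-GFP-M, while *Snap25* and *Syt1* were not detected. The sums were 782 and 3029 in B16F1-GFP-D and 2914 and 821 in B16F1-GFP-M. Most of them came from *Mbp* alone, with raw intensities of 669 and 2923 in B16F1-GFP-D and 2706 and 742 in B16F1-GFP-M. Striated muscle, a tissue rich in *Ppargc1a*, had *Ckm* and *Acta1* among the markers not above background, with sums of 141 and 221 against 247 and 132. The part of leukocytes, fibroblasts or neural cells in the ratios above was not tested.

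**Figure D4:**
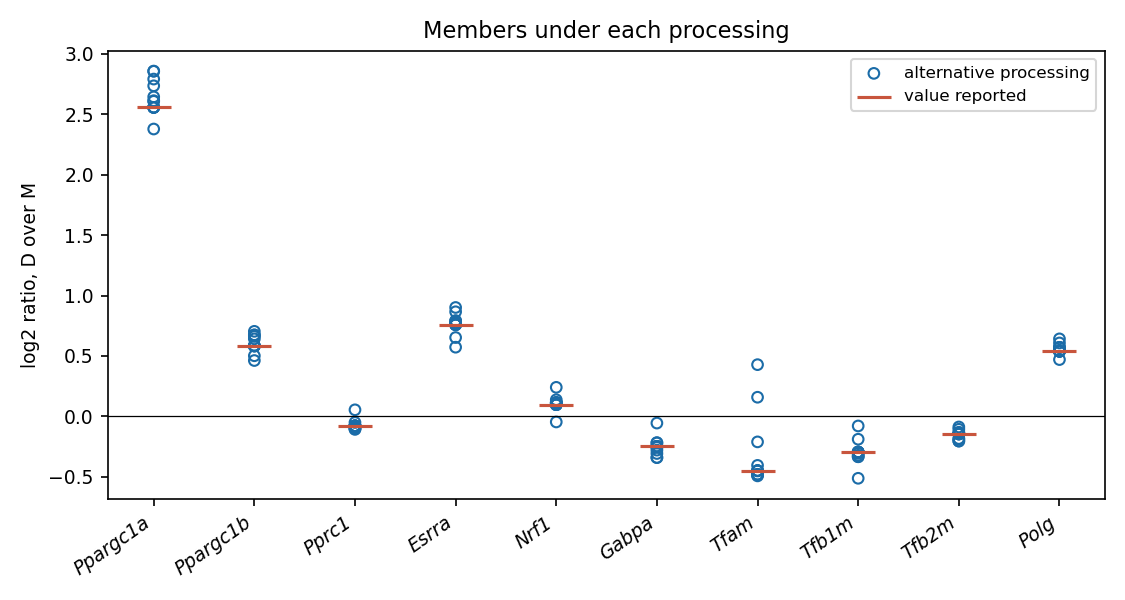
The log2 ratio, B16F1-GFP-D over B16F1-GFP-M (y axis), is plotted for each of the 10 genes (x axis) as reported (red bar) and under 12 other ways to process the arrays (open circles). *Ppargc1a* lies between 2.38 and 2.86 in all of them, *Esrra* between 0.57 and 0.90, and *Tfam* between -0.49 and 0.43. The 0.90 of *Esrra*, with median centring, is the mean of -0.17 on array 1 and 1.97 on array 2.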

How the data were processed

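The deposited intensities of each spot and its local background are those the authors read with Agilent Feature Extraction (version 10.7.3.1), without normalization. The deposited log10 ratios of Cy5 over Cy3, from its processed signals, and the series table of the same values were alternatives. Flags for spots well above background and for outliers (143 and 176 spots, left out) are also the authors' deposited values.

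From 43379 non-control spots of 41164 probes, limma 3.58.1 in R 4.3.3 corrected the background by normexp with an offset of 50, which draws ratios of dim spots towards 0, followed by loess within arrays. In the 4 channels, 44.1% to 60.7% of spots were well above background, and none was saturated. Gene names came from accessions matched to GRCm38.p6 for 27192 probes, and otherwise from the files. A gene was read at its brightest probe, and other probes of a listed gene can differ, as for *Yme1l1*, whose probe means ran from -0.35 to 0.21. Arrays correlated at 0.927 across detected genes, which are not independent. Probe coordinates are mm9, as given in the array files, and promoters are RefSeq GRCm38.p6. Probes were aligned to promoters with edlib 1.3.9.post1.

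The genes and lists were chosen with earlier results of these data known. Named are all 10 genes, the called genes and both extremes of each list, and the 3 genes nearest to *Ppargc1a*. Any other gene named, cell markers apart, was chosen after its values were seen. Code was tested on simulated arrays. Python 3.11.15 was used.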

Additional observations from a re-analysis of the deposited data

How the results depend on the processing

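*Ppargc1a* was called in all alternatives, which included other background corrections, scalings, filters, probe rules and fold thresholds. It was picked for its high ratio on these same arrays, so this is a description and no separate support. Scaling between arrays, the other filters and the choice of RefSeq probes left its ratio at 2.56. Its log2 ratio was 2.86 by the scanner software's log ratio and also by the series value table. Its place among detected genes was 44th by both, 17th with an offset of 0, and 2nd to 7th otherwise. With median centring the arrays differed more, at 1.37 and 3.92. With 1 array left out in turn it ranged from 2.38 to 2.74, the median of the 10 genes from -0.05 to 0.08, and 1 of the 10 genes was called each time. The pathway genes called then numbered 4, with *Slc25a4* added without array 1 and *Cycs* without array 2. The median of the 10 genes was 0.15 when probes of a gene were summarised by their median and 0.26 with RefSeq probes only, an alternative added after seeing the data. At 1.5-fold 2 of the 10 genes were called, against 15.8% of all detected genes.

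The count of called pathway genes, 3 in the report, depended on the setting. It was 6 by the scanner software's log ratio and the series value table, where 10.8% of all detected genes were called, and 18 at 1.5-fold, against 15.8%. It was 5 with the median over probes, against 4.30%, and with 2-fold on the mean of the arrays, against 6.08%. It was 0 with median centring, against 0.51%, and at 3-fold, against 0.98%. Signs changed for *Nrf1* (-0.05 without array 2), *Pprc1* (0.05 with median centring), *Tfam* (0.16 with the median of probes, 0.43 with RefSeq probes), the median of the 10 genes (-0.05 without array 2) and the median of antioxidant targets (-0.00013 without array 2), none of them called. The other 7 genes kept their sign. With median centring *Esrra* did so only as a mean, at -0.17 on array 1 and 1.97 on array 2. The medians of all other lists kept their sign, but most of these medians moved. They ranged from -0.39 to -0.20 for upstream regulators, -0.33 to -0.07 for receptors and cofactors, -0.16 to -0.02 for mitochondrial DNA maintenance, 0.41 to 0.78 for oxidative targets, 0.14 to 0.42 for import, -0.14 to -0.0077 for dynamics and -0.57 to -0.06 for mitochondrially encoded genes. The median of antioxidant targets ranged from -0.00013 to 0.27. The cause was not tested. No paired analysis was possible because there were no replicate cultures to pair, and each ratio was already taken within 1 array. With so few arrays the precision is low, most of all for dim spots.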
